A study of Arabidopsis thaliana with 9 samples.

Results

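C24 and Col are natural inbred accessions of Arabidopsis thaliana, and their seedlings were compared by 1-colour Affymetrix arrays. The C24 group held 3 arrays and the Col group 3, which makes 6 of the 9 arrays of the study, and the other 3 arrays carried the F1 hybrid of both accessions. All groups were sampled as whole seedlings without root at 10 DAS, the age as the labels write it, after growth at 22 degrees under a 16 h and 8 h photoperiod. Neither accession carried a transgene, mutation or treatment that the labels name. The labels call the replicates biological but do not say how many plants went into each, so the p-values below measure the spread between these samples. All 22746 probe sets that are not controls were considered, and 15922 of them had a mean signal above the filter level of 11.1 and were tested.

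Accessions differ at many positions in their genomes, including whole genes that are present in one and missing or rearranged in another, and immune receptor clusters and defence metabolism are known for such variation. An Affymetrix probe set reads a gene through a set of short oligonucleotides whose match to the transcript sets the brightness. The array was designed on the Col sequence. A lower signal in C24 can therefore come with fewer transcripts, with a changed or deleted target sequence, or with both, and these data cannot tell them apart. The same limit holds for every lower value below and is not repeated. In RNA of whole shoots, fewer cells of a type and less RNA per cell cannot be told apart either.

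Arrays of C24 correlated at 0.954 to 0.971 with each other over the tested probe sets, arrays of Col at 0.944 to 0.965, and C24 arrays with Col arrays at 0.901 to 0.931. Replicate 1 of each group stood apart from replicates 2 and 3 on the second principal component, and counts without it are given in the closing section. Neither tested marker of shoot tissue passed. RCA, the activase of Rubisco, had signals of 5805, 5622 and 5321 on the C24 arrays, against 5662, 5444 and 6345 on the Col arrays (log2 difference -0.06 ± 0.07 SE, adjusted p = 0.737). FMA, a regulator of guard cell formation, stood at 71.4 ± 18.7 in C24 and 67.1 ± 11 in Col (SD, n = 3, adjusted p = 0.917). Of 12 root marker genes, 2 had a tested probe set, PYK10 and EXPA18, and their values stand with the endoplasmic reticulum body genes below. Hybridisation spikes are bacterial and phage transcripts added to each sample, each read here by more than 1 probe set. Their 9 probe sets had mean log2 differences between 0.07 and 0.47, all toward C24, on the deposited scale. Whether this shift touched the comparison was not tested.

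C24 differed from Col at 1348 of the 15922 tested probe sets, 8.47% of them, with 567 higher (3.56%) and 781 lower (4.91%) in C24 at an adjusted p under 0.05. Of these, 302 were at least 2-fold higher and 479 at least 2-fold lower, 108 and 151 passed 4-fold, and 38 and 50 passed 10-fold in the fitted values. In all 1348 the C24 and Col arrays did not overlap, a property that 13.9% of the tested probe sets had with C24 above Col and 12.3% with C24 below. The median size of a called log2 difference was 1.13 and the smallest was 0.28. Dim probe sets were called about as often as bright ones, at 8.97% of the dimmest 3981 and 8.59% of the brightest 3981. The called differences were larger among dim probe sets, with a median log2 size of 1.66 (median SE 0.29) in the dimmest and 0.80 (median SE 0.16) in the brightest of these sets. Among genes named by 1 probe set, or by the brightest of several, 328 of 8726 were higher and 448 lower (8.89%), with a median log2 difference of 0.04. The share called was 9.42% on chromosome 1, 8.22% on 2, 9.42% on 3, 8.23% on 4 and 8.64% on 5. The split between directions moved with the scaling: the higher calls made up 42.1% after quantile normalization, 51.8% after setting a common median and 34.3% on the deposited scale.

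**Figure D1:**
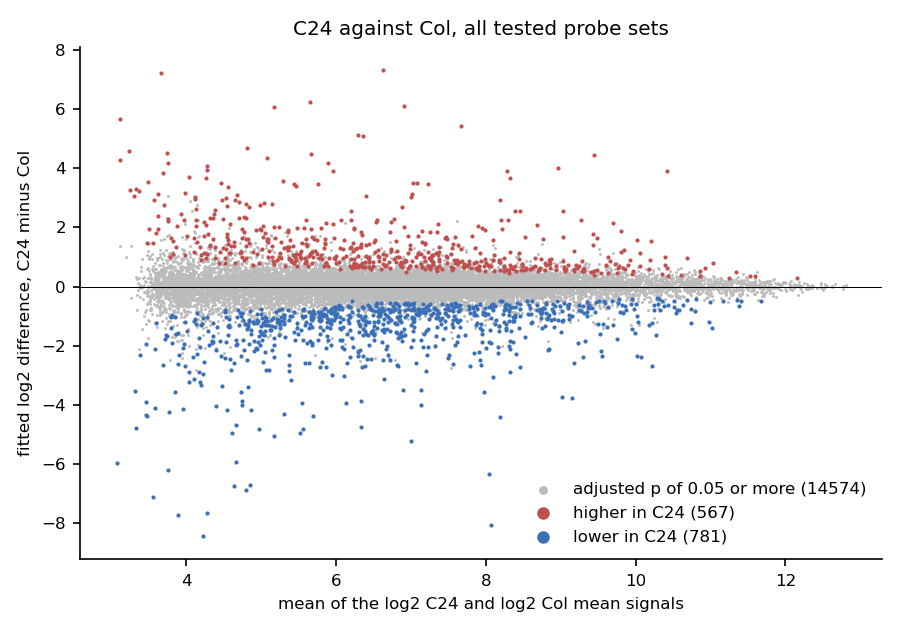
Fitted log2 difference, C24 minus Col, of each of the 15922 tested probe sets (vertical axis) against its mean log2 signal (horizontal axis). Red points are the 567 probe sets higher in C24, blue points the 781 lower in C24, and grey points did not pass. Most of the largest differences lie at the dim end, and calls occur over the whole range.

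The array's own control probe sets read a transcript, or a family of near-identical ones, at its 3' end, middle and 5' end, and some of them differed between the accessions at one place and not at another. The 3' probe set of actin, a cytoskeletal gene used as a standard, had deposited signals of 306, 336 and 432 on the C24 arrays, against 2727, 2761 and 2907 on the Col arrays. Col was 7.82 times as bright as C24 there, with no overlap. An older 3' actin probe set behaved alike, at 141 ± 30 in C24 and 1256 ± 114 in Col (SD, n = 3, 8.89-fold). The middle of actin read 1430, 1228 and 782 on the C24 arrays, against 2119, 1409 and 2132 on the Col arrays, and a further middle probe set 889 ± 120.4 in C24 and 948 ± 141 in Col (SD), with overlapping arrays in both. At the 5' end of actin the signals were 1069, 1087 and 353 on the C24 arrays, against 1031, 624 and 861 on the Col arrays, with means of 836 in C24 and 838 in Col. An older 5' actin probe set read 83.4, 64.9 and 44.1 on the C24 arrays, against 415, 52.1 and 69.6 on the Col arrays, with 1 bright Col array, and overlapped. The middle probe set of ubiquitin read 186, 235 and 233 on the C24 arrays, against 453, 419 and 489 on the Col arrays, a 2.08-fold lower mean in C24, whereas an older 3' ubiquitin probe set read 3021, 2704 and 3636 on the C24 arrays, against 3171, 3282 and 2954 on the Col arrays and overlapped. A newer 3' ubiquitin probe set read 3027, 3029 and 2999 on the C24 arrays, against 3256, 3397 and 3898 on the Col arrays, a 1.17-fold lower mean in C24 without overlap. GAPDH, a glycolytic enzyme gene, had 3' over 5' ratios of 1.01, 1.06 and 1.36 on the C24 arrays, against 1.02, 1.35 and 1.07 on the Col arrays, so that this usual measure of RNA integrity overlapped between the groups. The ratio was highest on C24 replicate 3 and Col replicate 2. A newer 5' ubiquitin probe set was dimmest on these arrays, at 2579, 2363 and 1215 on the C24 arrays, against 2261, 1561 and 2425 on the Col arrays. Whether this affected the calls was not tested. The newer 3' GAPDH probe set was higher in C24, at 2995 ± 187 in C24 and 2515 ± 63.2 in Col (SD, n = 3), without overlap. An older 3' GAPDH probe set overlapped, at 890 ± 76.8 in C24 and 873 ± 123 in Col. The newer 5' set, at 2679 ± 545 in C24 and 2234 ± 373 in Col, had a higher C24 mean with overlapping arrays. So did the middle set, at 1983 ± 125 in C24 and 1540 ± 390 in Col. For actin and ubiquitin the size of the difference thus depended on which stretch was read. These control values are a description, since controls were not in the fit.

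**Figure D2:**
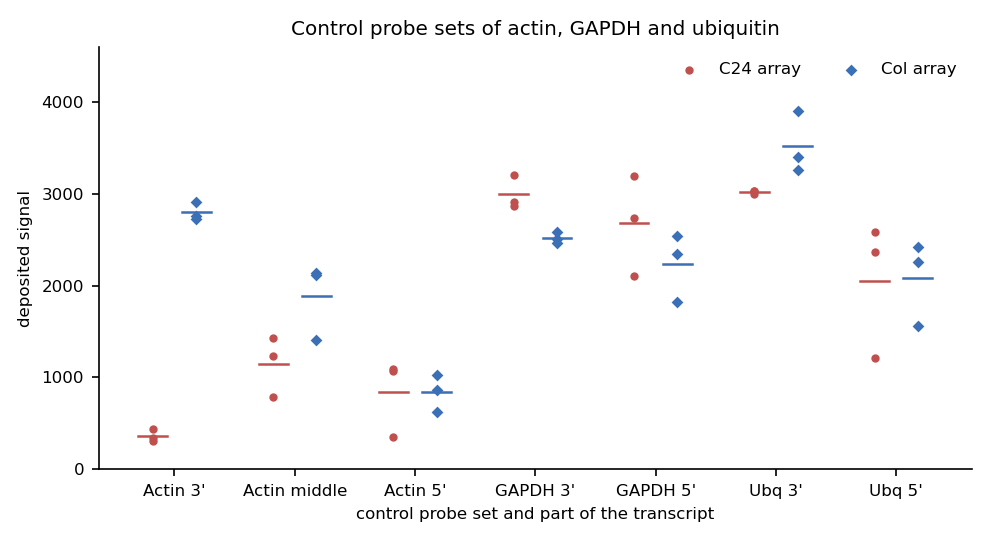
Deposited signal (vertical axis, linear) of control probe sets for actin, GAPDH and ubiquitin (Ubq) at the named part of the transcript (horizontal axis). Red circles are the 3 C24 arrays, blue diamonds the 3 Col arrays, and lines their means. The 3' actin set is at 306 to 432 in C24 and 2727 to 2907 in Col, while the arrays overlap at the 5' end of actin.

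Genes read by several probe sets gave a second view of the same point. Of 80 such genes among those tested, 10 had at least 1 called probe set, 2 had every probe set called in one direction, and 0 had calls in opposite directions. Over all tested probe sets 8.47% were called, and a gene with several probe sets has more openings for a call. In each of these 10 genes the fitted log2 differences had the same sign, though that of the second AT1G79150 probe set was only 0.003. One probe set of 2A6, a gene of the 2-oxoglutarate-dependent dioxygenase family, averaged 8.38 ± 2.97 in C24 and 251 ± 46.7 in Col (SD, n = 3; adjusted p = 3.31e-06), while its other probe set averaged 12.7 ± 1.43 in C24 and 15.6 ± 2.86 in Col and did not pass (adjusted p = 0.649). AT5G22700 likewise read 12.9 ± 2.43 in C24 and 92.4 ± 18.5 in Col with one probe set (adjusted p = 6.75e-05) and 29.4 ± 3.84 in C24 and 43.7 ± 2.44 in Col with the other (adjusted p = 0.0691). AT1G79150 was higher in C24 by one probe set, at 128 ± 15.6 in C24 and 71.4 ± 16.2 in Col (adjusted p = 0.0246), and did not pass by the other, at 69.9 ± 19.2 in C24 and 70.1 ± 20.4 in Col. Both probe sets of AT2G25870 were lower in C24, with log2 differences of -3.32 and -1.51, as were both of AT2G17410, at -1.28 and -0.65. AT2G40316 had close values of -0.80 and -0.71, of which only the second passed (adjusted p = 0.0881 and 0.0441). Single-probe-set values below carry no such check.

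Signals present in C24 and close to nothing in Col came from 16 called probe sets that lay below the filter level on every Col array and above the median signal of 51.2 in C24. The 15 largest higher differences with a single named gene include several of these. AT4G29200 had signals of 1238, 1198 and 1323 on the C24 arrays, against 7.36, 8.78 and 7.44 on the Col arrays (adjusted p = 2.33e-09). AT3G48640 read 166, 192 and 126 on the C24 arrays, against 0.955, 1.17 and 0.69 on the Col arrays, and AT1G63540 read 73.8, 64.1 and 54.1 on the C24 arrays, against 1.46, 1.34 and 0.704 on the Col arrays. For these the Col signal was no more than the bottom of the scale, so no fold is given. AT1G61500, a gene of an S-domain receptor-like kinase, was at 285, 549.6 and 579 on the C24 arrays, against 18.3, 17.4 and 6.99 on the Col arrays. The other 5 tested loci of the S-domain list, all in its neighbourhood, had log2 differences between -0.53 and 0.53 and none passed. AT2G44380, a gene with a cysteine- and histidine-rich C1 domain, stood at 59.6 ± 17.8 in C24 and 3.01 ± 2.06 in Col (SD, n = 3). The annotated pseudogene AT5G34920 had log2 difference 4.68 ± 0.59, AT5G15360 4.50 ± 0.23 and AT1G04660 4.08 ± 0.49 (SE).

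Of these 15 genes, THI2.2 had the largest fold with every Col array above the filter level. It encodes a thionin, a small cysteine-rich antimicrobial peptide, and had signals of 2198, 1731 and 2054 on the C24 arrays, against 139.5, 92.8 and 143 on the Col arrays (16.2-fold higher, log2 difference 4.01 ± 0.23 SE, adjusted p = 5.6e-06). Every C24 array was over 10 times as bright as every Col array. The other 4 tested members of the plant defensin and thionin list had log2 differences between 0.07 and 0.55 and did not pass. Of all named genes 8.89% were called. The list does not hold every such gene. The defensin-like genes AT2G43535 and AT2G43550, given below, lie outside it and were called, with log2 differences of -2.58 and 0.91. JAL33, a jacalin-type lectin gene, read 1160.5, 1068 and 1377 on the C24 arrays, against 71.3, 67.6 and 101 on the Col arrays (15.2-fold, adjusted p = 8.23e-06). AT3G28270 read 1027, 864 and 1269.7 on the C24 arrays, against 159, 96.7 and 35.9 on the Col arrays (12.7-fold, adjusted p = 0.000992), with a wider spread in Col than in C24. AT5G26280, a TRAF-like family gene, and AT2G29170, a short-chain dehydrogenase gene, rose by 3.94 and 3.57 on the log2 scale from Col signals at the filter level or under it. The calls of AT1G66860, a glutamine amidotransferase-like gene, and SUFE2, a gene for iron-sulphur cluster assembly, were the weakest of the 15. AT1G66860 stood at 9.99, 60.2 and 128 on the C24 arrays, against 1.64, 8.04 and 2.55 on the Col arrays and SUFE2 at 60.5, 68 and 27.4 on the C24 arrays, against 1.63, 17.9 and 1.8 on the Col arrays (adjusted p = 0.0387 and 0.0333), and they lost their calls under 6 and 7 of the alternative settings (adjusted p up to 0.106 and 0.186).

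The reverse pattern, below the filter level on every C24 array and above the median signal in Col, held for 24 called probe sets. AT1G76960 had signals of 0.428, 0.722 and 0.342 on the C24 arrays, against 364, 381 and 301 on the Col arrays (adjusted p = 3.24e-09). AT4G19500, which encodes an immune receptor with nucleotide-binding and leucine-rich repeat domains, read 0.965, 0.699 and 0.865 on the C24 arrays, against 142, 146 and 132 on the Col arrays. QQS, an orphan gene that modulates starch content in leaves, read 1.16, 6.42 and 1.36 on the C24 arrays, against 209, 302 and 263 on the Col arrays. In these genes every C24 array lay at the bottom of the scale and every Col array above 130. AT1G23960, AT2G14460, AT1G66660 and AT5G55790 were lower with log2 differences of -7.68, -6.22, -5.97 and -4.97, again with C24 at the bottom of the range. The annotated pseudogene AT1G35612 and the protein-coding gene AT5G45500 each had 1 C24 array above 6 and the others under 1.4. scpl42, a serine carboxypeptidase-like gene, was at 9.52, 8.69 and 8.42 on the C24 arrays, against 229, 283 and 238 on the Col arrays (adjusted p = 3.84e-08), and the other 14 tested members of that family had log2 differences between -0.63 and 0.28 and did not pass.

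ECS1 had the largest fold of the 15 lower genes still above the filter level in C24, with signals of 14.9, 16.1 and 17.6 on the C24 arrays, against 5102, 4826 and 3337 on the Col arrays (269-fold lower, adjusted p = 3.24e-09). AT3G22240 followed at 17.9, 41.7 and 29.2 on the C24 arrays, against 1634, 2866 and 2562 on the Col arrays (82-fold, adjusted p = 1.61e-05). AT1G67865 read 18.4, 17.4 and 26.1 on the C24 arrays, against 532, 1060 and 780.1 on the Col arrays (37.5-fold) and AT4G20480 17.6, 12.9 and 16.4 on the C24 arrays, against 392, 394 and 469 on the Col arrays (26.9-fold). In each of these genes both groups were tight relative to the gap. The C24 signals of ECS1 and AT4G20480 lay near the filter level of 11.1 and were not separated from background, so the size of their folds is uncertain. The same holds for CHI and GRX480 below, whose Col signals lay as near to it. Of the 30 genes with the largest differences, all but AT1G66860 and SUFE2 kept their call under each of the alternative settings that tested them.

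**Figure D3:**
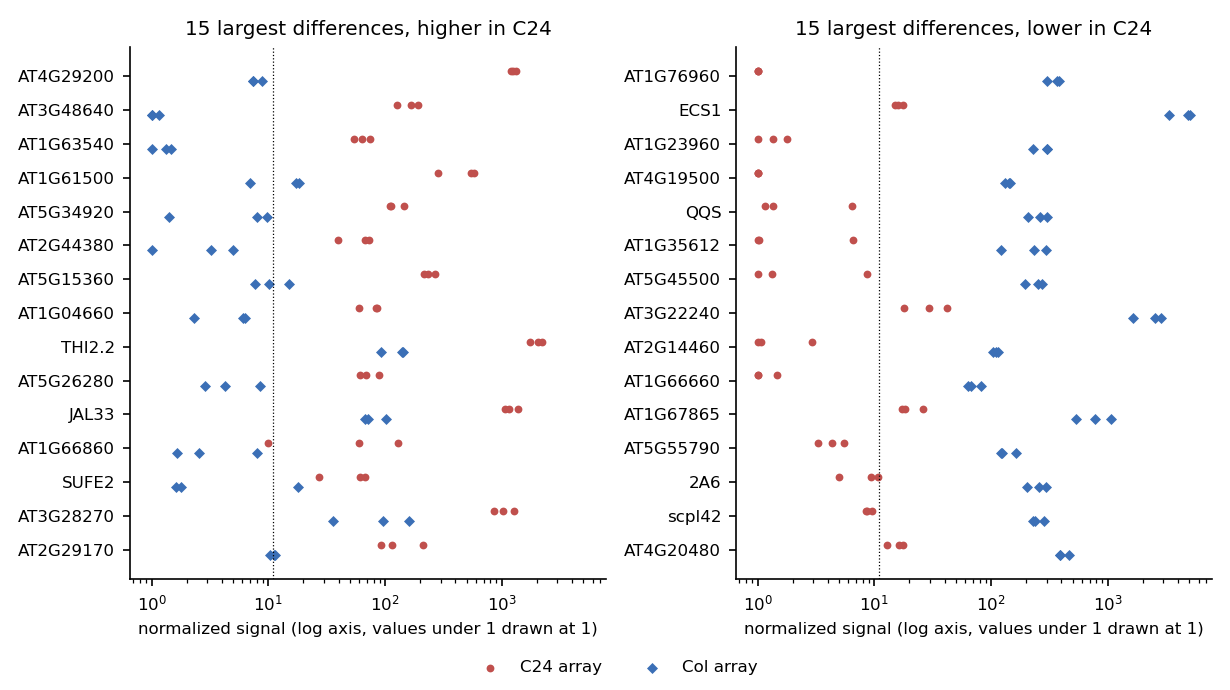
Normalized signal of each array (horizontal log axis, values under 1 drawn at 1) for the 15 largest higher (left) and 15 largest lower (right) differences with 1 named gene. Red circles are C24 arrays, blue diamonds Col arrays, and the dotted line is the filter level of 11.1. In the right panel most genes have all C24 arrays left of the line, and in none of the 30 do the groups overlap.

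Genes of endoplasmic reticulum bodies, beta-glucosidases and jacalin lectins included several of the brighter genes that were higher in C24. ER bodies are organelles of Brassicaceae seedlings that store beta-glucosidases, which meet glucosinolates and lectins when tissue is damaged. Of 18 tested genes of this list, 7 were higher and 1 was lower, with a median log2 difference of 0.79. Over all tested probe sets 3.56% were higher and 4.91% lower. Of the 8726 named genes, which like list members have 1 probe set each, 328 were higher and 448 lower, with a median of 0.04. List members were chosen with earlier results of these data known, so a count above these shares is not evidence of an excess. This holds for every list in the text. PYK10, the main beta-glucosidase of ER bodies, read 1017, 1230.2 and 1839.8 on the C24 arrays, against 293, 236 and 307 on the Col arrays (4.77-fold, adjusted p = 0.000241). JAL34 read 886, 726 and 928 on the C24 arrays, against 115, 145 and 180.5 on the Col arrays (5.84-fold, adjusted p = 4.53e-05), and JAL22 339, 428 and 467 on the C24 arrays, against 117, 122 and 133 on the Col arrays (3.3-fold, adjusted p = 0.000126). No array of these genes overlapped between the groups.

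NAI2, needed to form ER bodies, stood at 212 ± 68.4 in C24 and 111 ± 27.3 in Col (SD, n = 3, 1.88-fold higher, adjusted p = 0.0486), BGLU15 at 108 ± 20.8 in C24 and 61.4 ± 12.1 in Col (1.76-fold) and BGLU43 at 29.1 ± 11.4 in C24 and 3.65 ± 2.4 in Col, with Col under the filter level. BGLU42 was the 1 lower gene, at 71.7 ± 14 in C24 and 169 ± 22 in Col (2.37-fold, adjusted p = 0.00165). NAI1, the transcription factor of ER bodies, had a log2 difference of 0.76 ± 0.40 (SE, adjusted p = 0.31) and JAL23 one of 0.97 ± 0.39 (adjusted p = 0.177), neither past the threshold. BGLU44, the brightest uncalled member, did not pass at 1091 ± 152 in C24 and 1244 ± 149.8 in Col. The number of higher members ran from 4 to 8 over the alternative settings. PYK10 is also a root marker. The other tested root marker, EXPA18 of root hairs, read 12.9, 7.08 and 8.8 on the C24 arrays, against 13.6, 19.3 and 26.9 on the Col arrays (log2 difference -1.04 ± 0.36, adjusted p = 0.122), which is the opposite sign, and a part of residual root tissue in the PYK10 value was not tested.

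Of 7 tested pathogen- and salicylate-response genes 4 were higher and 0 lower, beside 3.56% higher and 4.91% lower over all tested probe sets, with a median log2 difference of 1.95. Genes outside this short list were not sorted by their response to salicylate. AT5G03350, 1 of these unsorted genes, was lower, at 292 ± 179 in C24 and 1361 ± 294 in Col (SD, n = 3, 5.24-fold, adjusted p = 0.00309). The count therefore describes these 7 members and not the salicylate response as a whole. CHI, a chitinase gene, read 179.7, 179.6 and 83.7 on the C24 arrays, against 14.3, 13.7 and 11.9 on the Col arrays (10.5-fold, adjusted p = 0.000112). GRX480, a glutaredoxin gene of the salicylate response, read 49.8, 70.3 and 41 on the C24 arrays, against 13.8, 13.3 and 13.5 on the Col arrays (3.87-fold, adjusted p = 0.00338). AT5G55450, a lipid transfer protein-like gene, read 994, 965 and 608 on the C24 arrays, against 175, 219.9 and 195 on the Col arrays (4.27-fold, adjusted p = 0.0203), and AT2G44380 was given above. AT3G60420 stood at 159 ± 44.3 in C24 and 88.8 ± 25.3 in Col (SD, n = 3, adjusted p = 0.141), SAL2 at 27.7 ± 10.5 in C24 and 12.2 ± 1.56 in Col and AT1G35710, with the single negative difference, at 36.9 ± 6.65 in C24 and 55.3 ± 27.4 in Col. In all 7 genes C24 replicate 3 was the dimmest of the C24 arrays. Without single arrays or with other settings 1 to 4 members were higher. The count of 1 came only with the filter at the 50th percentile, which leaves dim probe sets untested. CHI, GRX480 and AT2G44380 kept their calls in every setting that tested them. AT5G55450 lost its call in 7 of the settings (adjusted p up to 0.0781). CSA1, an immune receptor gene and the 1 tested gene of the receptor list, which picks its members by symbol, was at 302, 320.2 and 402 on the C24 arrays, against 82.3, 117 and 126 on the Col arrays (3.18-fold higher, adjusted p = 0.000857). AT4G19500, given above, also encodes such a receptor and was lower, with a log2 difference of -7.12. The WRKY factors, which act downstream of immune signals, had 0 of 6 called, with a median of -0.28.

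Among enzymes that modify small molecules, glutathione transferases had 3 higher and 0 lower of 9 tested (median 0.37) and cytochromes P450 had 3 higher and 0 lower of 13 (median 0.27), beside 3.56% higher and 4.91% lower over all tested probe sets. GSTU26 read 241, 199.7 and 217 on the C24 arrays, against 52.3, 28.4 and 75.2 on the Col arrays (4.55-fold, adjusted p = 0.00338) and GSTU27 868, 754 and 990.3 on the C24 arrays, against 364, 284 and 510.4 on the Col arrays (2.31-fold, adjusted p = 0.00853). GSTU20 differed by less, at 3367 ± 212 in C24 and 2604 ± 212 in Col (1.29-fold, adjusted p = 0.0378), a call lost in 11 settings. CYP71B24 and CYP71B23, P450 genes of one subfamily, had log2 differences of 1.63 ± 0.34 and 2.13 ± 0.53 (SE), and CYP51G2, a relative of the sterol demethylase, 0.98 ± 0.25. CYP51G2 lost its call in 10 settings, the replicate block among them (adjusted p up to 0.175), CYP71B23 in 7 (up to 0.117) and CYP71B24 in 3. The P450 count ran from 0 to 4 over the settings. UDP-glycosyltransferases had 1 higher and 3 lower of 27 (median -0.15), 14.8% of them, beside 8.89% of all named genes. UGT85A2 read 50.7, 56.1 and 46.2 on the C24 arrays, against 159, 197 and 213 on the Col arrays (3.71-fold lower, adjusted p = 0.000305), UGT88A1 was 1.5-fold lower and UGT72B3 2-fold higher, calls lost in 3 and 8 settings. Blocking on replicate number, 7 UDP-glycosyltransferase genes were lower and 2 higher.

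**Figure D4:**
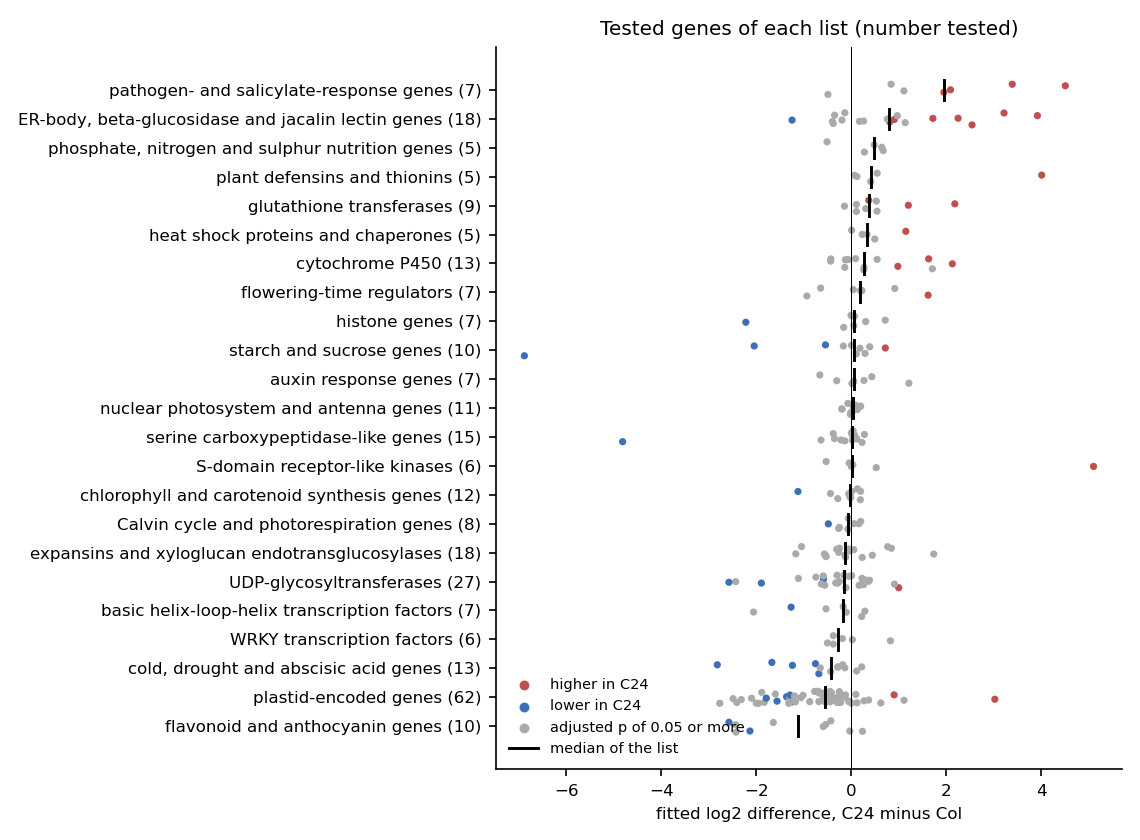
Fitted log2 difference, C24 minus Col (horizontal axis), of each tested gene in the lists with 5 or more tested genes (vertical axis, number tested in brackets), ordered by median. Red points passed the threshold higher in C24, blue points passed lower, grey points did not pass, and black lines are list medians. Pathogen-response and ER-body genes lie to the right, and flavonoid genes to the left.

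Flavonoid and anthocyanin enzymes build flavonols and the red pigments of stressed seedlings. Of 10 tested genes of this pathway 2 were lower and 0 higher, beside 3.56% higher and 4.91% lower over all tested probe sets, with a median log2 difference of -1.11 and 9 of 10 values below 0. UGT78D1, a flavonol rhamnosyltransferase gene, read 30.9, 17.5 and 37.9 on the C24 arrays, against 272, 147 and 108 on the Col arrays (5.95-fold, adjusted p = 0.00177). DFR, the dihydroflavonol reductase gene, read 154, 146 and 144 on the C24 arrays, against 976, 707 and 395 on the Col arrays (4.38-fold, adjusted p = 0.00268). The Col arrays of both spread widely, with replicate 1 the brightest and replicate 3 the dimmest, while the C24 arrays of DFR were tight. CHIL, a helper of chalcone isomerase, overlapped at 243, 189 and 157 on the C24 arrays, against 395, 129 and 151 on the Col arrays. With the replicate numbers as a block, 6 of the 10 were lower, so that this list depends on how the replicate difference is treated.

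Cold, drought and abscisic acid genes showed 5 lower and 0 higher of 13, beside 3.56% higher and 4.91% lower over all tested probe sets, with a median of -0.43. DI21, a drought-induced gene, read 79.8, 123 and 134 on the C24 arrays, against 347, 379.7 and 321 on the Col arrays (3.18-fold, adjusted p = 0.000583), and AT2G23120, a late embryogenesis abundant gene, 720.5, 903 and 719 on the C24 arrays, against 1640.1, 1888 and 1972 on the Col arrays (2.35-fold, adjusted p = 0.000737). LTI30, a dehydrin gene, stood at 14.7 ± 13.8 in C24 and 76.9 ± 10.4 in Col (SD, n = 3), with C24 arrays of 9.03, 4.64 and 30.4. The chloroplast cold protein genes COR15B and COR15A were 1.6-fold and 1.68-fold lower (adjusted p = 0.0248 and 0.037). The count ran from 2 to 5 over the settings. AT1G54410, a bright dehydrin gene, did not pass at 2144 ± 377 in C24 and 2599.6 ± 314 in Col.

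Of 10 starch and sucrose genes 3 were lower and 1 higher, beside 3.56% higher and 4.91% lower over all tested probe sets, and the median was 0.06. Beside QQS, APL3, a large subunit of ADP-glucose pyrophosphorylase, read 40.1, 27.1 and 30.1 on the C24 arrays, against 208, 138 and 79.7 on the Col arrays (4.11-fold lower, adjusted p = 0.00829). SBE2.2, a starch branching enzyme gene, was 1.45-fold lower and SWEET11, a sucrose exporter gene, 1.65-fold higher, and each lost its call in 7 or more settings. PWD, of starch breakdown, overlapped at 584 ± 194 in C24 and 632 ± 86.5 in Col. The glucosinolate list held 4 tested genes. AT2G25450, a dioxygenase gene of aliphatic glucosinolate side chains, read 438, 472 and 485 on the C24 arrays, against 1638, 1534 and 1614 on the Col arrays (3.43-fold lower, adjusted p = 0.000245), a tight difference kept in all settings. BCAT4, which starts the methionine chain elongation of that pathway, read 2361, 2151 and 2280.1 on the C24 arrays, against 1482, 1419.6 and 725 on the Col arrays (1.97-fold higher, adjusted p = 0.0462), lost in 9 settings.

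Of 11 nuclear photosystem and antenna genes 0 passed, beside 8.89% of all named genes, and 0 passed under any alternative. Their log2 differences ran from -0.20 to 0.20 with a median of 0.03. The 95% intervals of all 11 lay between -0.57 and 0.71, so that changes of 2-fold lie outside them. LHCB4.1, a minor antenna protein gene, was at 6274 ± 0 in C24 and 6336 ± 185 in Col, where quantile normalization had given the 3 C24 arrays the same rank and value. Of 8 Calvin cycle and photorespiration genes 1 was lower, AT1G11860, the T-protein of glycine cleavage, at 2298 ± 253 in C24 and 3217 ± 490.1 in Col (1.39-fold), a call lost in 10 settings. Of 12 chlorophyll and carotenoid genes 1 was lower, hemf2, of the coproporphyrinogen oxidase family, at 34.1, 52.5 and 41.4 on the C24 arrays, against 101, 95.9 and 78.9 on the Col arrays (2.17-fold, adjusted p = 0.00613). PORB, protochlorophyllide reductase, and GAPC2, cytosolic GAPDH, had log2 differences of 0.20 ± 0.19 and 0.07 ± 0.09 and did not pass.

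Of 62 tested plastid-encoded genes 5 were lower and 2 higher, 11.3% of them, beside 8.89% of all named genes. A negative difference was found in 53, and the median was -0.56, beside 0.04 over all named genes. The 5 lower genes include psbE, psbF, psbJ and psbL, which encode small subunits of photosystem II and lie side by side in the plastid genome. psbL read 94.4, 89.9 and 95 on the C24 arrays, against 321, 337 and 306 on the Col arrays (3.45-fold, adjusted p = 0.000144), psbE 709.5, 645 and 429 on the C24 arrays, against 1566, 2226 and 1444 on the Col arrays (2.95-fold, adjusted p = 0.0088) and psbF 1228, 1312 and 809 on the C24 arrays, against 2080.3, 3198 and 2575 on the Col arrays (2.36-fold, adjusted p = 0.0139). psbJ and rpl36, a ribosomal protein gene, were 2.44-fold and 2.57-fold lower. rps18, of the small ribosomal subunit, was 1.87-fold higher, and rpoB, of the plastid RNA polymerase, read 80.5, 52.1 and 24.1 on the C24 arrays, against 6.39, 5.11 and 5.72 on the Col arrays. atpE, of the ATP synthase, did not pass at 5257 ± 263 in C24 and 5251 ± 532 in Col. The number lower ran from 2 to 15 over the settings. The control probe set of 25S ribosomal RNA, which like most plastid RNA lacks a long poly(A) tail, was also lower on every C24 array than on every Col array on the deposited scale, at 90.7, 217 and 44.9 on the C24 arrays, against 503, 2464 and 1426 on the Col arrays, and its relation to the plastid values was not tested.

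Of 18 expansin and xyloglucan endotransglucosylase genes, which loosen cell walls, 0 were called, beside 8.89% of all named genes (median -0.12; 1 was higher and 1 lower with the replicate block). The pectin list had 1 lower of 3, PME61, a pectin methylesterase gene, at 27, 13 and 16 on the C24 arrays, against 79.4, 56.9 and 74.2 on the Col arrays (3.91-fold, adjusted p = 0.00179). Of 7 histone genes 1 was lower. HTB2, an H2B gene, read 96.3, 121 and 115 on the C24 arrays, against 488, 415 and 663 on the Col arrays (4.65-fold, adjusted p = 8.33e-05), while HTB4, another H2B gene, read 801, 832 and 819 on the C24 arrays, against 770.3, 760.4 and 934 on the Col arrays and did not pass (95% interval of the log2 difference -0.25 to 0.25). Of 5 heat shock and chaperone genes 1 was higher, the chaperonin subunit Cpn60beta3 (2.22-fold, adjusted p = 0.00233), beside its relative Cpn60beta2 at 1518 ± 120.2 in C24 and 1509 ± 147 in Col. The auxin response list had 0 of 7 called, ethylene and ERF factors 0 of 3, clock genes 0 of 3, iron, zinc and copper genes 0 of 4 (1 lower with the replicate block), and nutrient genes 0 of 5 (3 higher with the block). bHLH factors had 1 lower of 7, bHLH104 of the iron response, at 64.6, 62.8 and 92.4 on the C24 arrays, against 182, 176 and 162 on the Col arrays (2.4-fold, adjusted p = 0.00165), and flowering regulators 1 higher of 7, SNZ, a repressor of the AP2 family (3.08-fold, adjusted p = 0.0486), lost in 8 settings, with 1 lower under the block. GI, a clock and flowering gene, had a log2 difference of 0.20 ± 0.15 with a 95% interval of -0.14 to 0.53.

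Some called genes lay within a few loci of each other, though not always side by side. With loci ordered as in the TAIR10.1 annotation, 20 runs held 3 or more called genes within 10 consecutive loci, 68 called genes in all, 21 higher and 47 lower, among 88 tested genes in the spans. In 7 runs every called gene was lower and in 1 every one was higher, so 8 of the 20 ran in one direction. How many such runs, or runs in one direction, scattered calls would give was not tested. On chromosome 2 a run of 5 consecutive loci, AT2G43535 to CHI, had every gene called and in both directions. AT2G43535, a defensin-like gene, read 13.8, 22.2 and 23.8 on the C24 arrays, against 102, 124 and 123 on the Col arrays, AT2G43550, another, read 1072, 1285 and 1655 on the C24 arrays, against 780.1, 749.8 and 582 on the Col arrays, and CHI next to them was 10.5-fold higher. AT2G43540 and AT2G43560, an isomerase gene, were 3.5-fold and 1.55-fold lower.

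On chromosome 4 AT4G16830, an RNA-binding protein gene, AT4G16850, the annotated pseudogene AT4G16870 and AT4G16880 were lower, with log2 differences of -1.16, -1.24, -3.89 and -3.57. AT4G16870 read 23.9, 20.8 and 17.6 on the C24 arrays, against 335, 373 and 228 on the Col arrays. On chromosome 5 AT5G45480, AT5G45500 and AT5G45510 were all lower, with AT5G45510 at 27.9, 35.9 and 34.3 on the C24 arrays, against 189.7, 197 and 255 on the Col arrays (6.51-fold). On chromosome 1 AT1G67800 and SUFE2 were higher and AT1G67860, AT1G67865 and AT1G67880 lower, so that the direction turned once along the run. Dioxygenase genes of one family stood near each other with opposite directions, AT1G06620 at 29.8 ± 1.64 in C24 and 9.9 ± 2.66 in Col and AT1G06640 at 54.7 ± 9.87 in C24 and 393 ± 60.5 in Col (SD, n = 3). The 1 run with only higher genes was AT3G60510, AT3G60520 and AT3G60540, at log2 differences of 0.69 ± 0.19, 1.62 ± 0.25 and 1.35 ± 0.18 (SE). AT3G60510 lost its call in 9 settings (adjusted p up to 0.282), which leaves 2 called genes there. Of the 20 runs, 5 to 20 kept 3 called genes under the alternatives, 8 without Col replicate 2 and 5 without replicate 1 of every group. JAL33 and JAL34 also stand side by side, and UGT88A1 lies a few loci on. The runs were picked for holding calls, so the share called inside them is fixed by that choice and is not to be read against the 8.89% over all named genes.

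**Figure D5:**
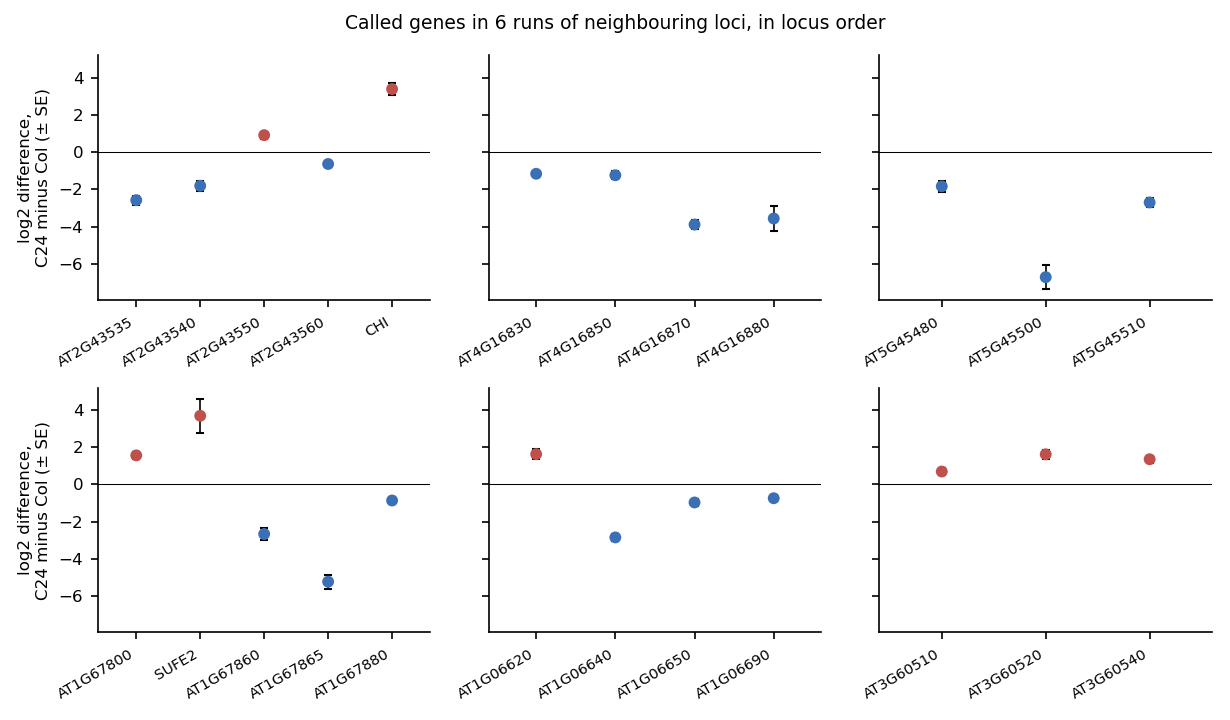
Fitted log2 difference, C24 minus Col (vertical axis, with SE), of the called genes in 6 runs of neighbouring loci, drawn in locus order (horizontal axis, not to scale). Red points are higher and blue points lower in C24. The runs around AT4G16870 and AT5G45500 hold lower genes only, and the run from AT2G43535 to CHI holds both.

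Near the threshold, the values just inside it were AT2G41160 (adjusted p = 0.0497), AT4G14385 (0.0498) and an unnamed probe set, and just outside it AT5G40470 (0.0504), an unnamed probe set (0.0505) and NRPB9B (0.0506). AT2G41160 stood at 265 ± 31 in C24 and 166 ± 10.4 in Col and NRPB9B at 159.5 ± 9.27 in C24 and 109 ± 16.4 in Col (SD, n = 3). Both sides of the limit thus held differences of about the same size, with no overlap between the arrays of either gene.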

How the data were processed

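Per the labels, total RNA of whole seedlings without root was labelled with biotin, with 3 arrays for each of C24, Col and F1. The deposited values are linear intensities, with a single value for each probe set on each array. GCOS is named in the submitters' processing notes, and its version and settings were not stated in the sources used here. The trimmed mean of each deposited column, without 2% at each end, was equal on all arrays. No detection calls were used, and precision is limited by having 3 arrays a group.

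The column medians spanned 0.24 in log2, so quantile normalization over the 9 arrays was applied, without the 64 control probe sets (limma 3.58.1, R 4.3.3). A floor of 1 was set before the log2 step, and probe sets under the 30th percentile of mean log2 signal were left out. A single limma model of group means (lmFit, eBayes with a trend) was fitted to all 9 arrays. The F1 arrays therefore share in the estimate of the spread behind every SE and p-value. The contrast was C24 minus Col, with Benjamini-Hochberg adjustment over all tested probe sets and a threshold of 0.05. Values are normalized signals unless called deposited. Folds are from fitted log2 means, and none is given where the dimmer group lay at or under the filter level. The fit was tested on simulated data.

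Genes were named through the platform annotation and TAIR10.1. Of 22746 probe sets, 13513 named 1 gene, 503 several and 8730 are unnamed here; 13484 matched a locus. Named genes were the 15 largest differences each way with 1 gene, groups that did not overlap and the brighter of them above the median signal; up to 4 called genes and the brightest uncalled gene of each list; called genes in runs; standard genes; and 3 probe sets on each side of the threshold. BGLU15, BGLU42, BGLU43, NAI1, NAI2, JAL23, SAL2, AT1G35710, CSA1, COR15A, psbJ, rpl36, rpoB and the genes with several probe sets were named after their values were seen. Of 51 lists, 28 had 3 or more tested genes. Some list patterns first caught unrelated genes by name and were tightened. The members and lists were chosen with earlier results of these data known.

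Deviations of same-numbered C24 and Col arrays correlated at 0.49, 0.15 and 0.20. The highest correlation of the same C24 array with a Col array of another number was -0.26, 0.10 and 0.12. By the rule used here the replicate numbers thus pair the samples, though the margin was small for replicates 2 and 3. Counts, p-values and SEs come from the fit without the block unless the block is named. The alternatives changed scaling, filter, floor, added constant, variance trend, arrays in the fit and replicate block, and left out each array.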

Additional observations from a re-analysis of the deposited data

How the results depend on the processing

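Of the probe sets called both in the fit described above and under an alternative, 0 had the opposite sign in any of the 16 (942 to 1348 of the 1348 calls were tested). The number higher in C24 was 477 on the deposited scale, 751 with a common median and 756 with replicate number as a block, and the number lower 913, 700 and 979. With the block, 1325 of the 1348 calls remained; beside the list counts given above, the block raised those of defensins from 1 to 2 higher, P450 from 3 to 4, ER-body genes from 7 to 8, plastid genes from 2 to 3 higher and 5 to 6 lower, and carboxypeptidases from 1 to 2 lower. Fitting only the 6 C24 and Col arrays, without F1, gave 403 higher and 617 lower. Of the 1348 calls, 1329 were tested there and 969 remained. A filter at the 50th percentile left 377 higher and 426 at least 2-fold different, with fewer probe sets tested. Leaving out 1 array gave 288 to 474 higher and 485 to 622 lower, with 643 to 755 at least 2-fold different. The lowest counts were 288 higher without C24 replicate 2 and 485 lower without Col replicate 2, where 318 were higher; without C24 replicate 1 and C24 replicate 3 the higher count was 328 and 345. Without replicate 1 of every group, an alternative chosen after seeing the data, 229 were higher and 357 lower, and 548 of the 1348 calls remained; fewer arrays were fitted. Of 126 named probe sets that were called, 71 stayed past the threshold in every setting that tested them, and of 2426 named values under alternatives 277 lost their call, 7 gained one and 0 turned. Signals near the filter level were not separated from background, so differences between dim genes are the least certain.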
